A study of Mus musculus with 4 samples.

Results

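The 42 genes described here drive or mark the phases of the cell division cycle, and all were found by symbol among the 25965 entries of a gene count table from female mouse neural stem cells. They fall into 9 regulators of G1 and of entry into S phase, 13 genes of DNA replication in S phase, 18 genes of G2 and mitosis, and 2 inhibitors of cyclin-dependent kinases. All 42 were abundant enough to be tested, among 14860 genes tested.

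The cells were established from E14.5 embryos with a deleted and a conditional allele of Smchd1, which encodes a chromatin protein needed to keep the inactive X chromosome silent. In every line the maternal X was of 129 origin with an Xist allele labelled both as a knockout and as deltaA, and the paternal X was Castaneus (Cast). The strain is labelled as a mixture of C57BL/6, 129 and Castaneus. Part of each line received Cre recombinase and a puromycin cassette by retrovirus, was selected with puromycin from 24 h on and was harvested 7 days after transduction (Smchd1 del/del, here called deleted). The rest stayed untransduced (Smchd1 del/fl, here called control). There were 2 lines, called A and B, with a deleted and a control library of each, so 2 libraries per group. The design text speaks of 3 lines per genotype, and further lines were not analysed here. Deletion cannot be told apart from transduction and puromycin selection, which the controls did not undergo.

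In a dividing cell, D-type cyclins with Cdk4 or Cdk6, and then E-type cyclins with Cdk2, release E2F transcription factors from the retinoblastoma protein, and E2F switches on the genes of DNA replication. Later the genes of mitosis are switched on from promoters that carry CCAAT boxes, bound by NF-Y, and a short element called the cell cycle homology region (CHR), bound by MuvB complexes. Neural stem cells kept in culture divide continually, so genes of all phases are read in a bulk sample. A higher level in such a sample can come from more cells in a phase or from more RNA per cell, and these cannot be told apart.

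Total counts per library ran from 29873400 to 34018500. Smchd1 was at 93.5 and 102 CPM (counts scaled to library size, with TMM as a correction for library composition) in control A and control B and at 23.4 and 26.6 in deleted A and deleted B. The count covers the whole gene and not the deleted part alone. The neural stem cell markers Sox2, Nes, Vim, Pax6, Fabp7, Slc1a3 and Msi1 were present in every library and summed to 8280 to 9510 CPM, with log2 fold changes from -0.47 (Nes) to 0.96 (Slc1a3). Of the microglial markers Cx3cr1 had 0 counts in every library and Aif1, Itgam and Ptprc were at 0.119 CPM or less, with Csf1r and P2ry12 making up nearly all of a sum of 10.4 to 11.3 CPM. The 6 astrocyte markers summed to 284 and 251 CPM in controls and 644 and 443 in deleted cells. The 5 neuronal markers measured summed to 178 and 84 CPM in controls and 71.4 and 39.9 in deleted cells. Most of this was Syt1, at 170 and 72.0 CPM in controls A and B and 61.4 and 25.9 in deleted A and B. The others were at 8.31 CPM or less. Of these Dcx and Snap25 were higher and Tubb3 lower in each deleted library than in its control, and Rbfox3 was opposite in the lines. The 6 oligodendrocyte markers summed to 78.9 to 102 CPM, most of it Cnp (73.3 to 89.7). Mbp was at 1.03 CPM or less, and Mog and Mag at 0.0673 or less. The astrocyte and oligodendrocyte sums were higher, and the neuronal sum lower, in both deleted libraries than in both controls. The neural stem cell and microglial sums overlapped between the groups. The part of these marker levels in the results below was not tested.

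Promoters of the genes were searched for motifs that are known from cell cycle genes. RefSeq windows (GRCm38.p6) of 300 bases, from 250 before to 50 after the start of transcription, were available for 34 of the 42, and exact matches were sought on both strands. The motifs were CCAAT, the CHR written as TTTGAA or TTCGAA, and E2F sites written as TTTCCCGC, TTTGGCGC or TTTCGCGC, where matches of the last pair can overlap each other on opposite strands. A CHR match was present in 12 of 15 G2/M windows (80.0%), in 2 of 11 S phase windows (18.2%) and in 0 of 6 G1 windows, against 17.3% of 16042 windows of genes in the table. An E2F match was present in 6 of 11 S phase windows (54.5%), against 2.44% of all windows. It was also present in 1 of 6 G1 windows (16.7%), that of Cdk2, and in 1 of 15 G2/M windows (6.67%), that of Cdk1. CCAAT was found in 14 of 15 G2/M windows (93.3%), 8 of 11 S phase windows (72.7%) and 1 of 6 G1 windows (16.7%), against 38.8% of all. Windows with at least 2 CCAAT matches made up 66.7% of the G2/M set, 45.5% of the S phase set, 0% of the G1 set and 13.1% of all. The windows of E2f1, Cdc6, Mcm7 and Cdkn2c lay wholly inside the entry of their gene, so the RefSeq start used there is not the first base of the entry. They were counted all the same. A match is a description of the letters and not a site in use.

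The G2/M windows shown are those of Top2a and Mki67, which had the lowest adjusted p-values of the genes described by DESeq2, and of the mitotic cyclin Ccnb2 and its kinase Cdk1. Mcm6 and Mcm5 show the S phase pattern. Capitals mark CCAAT or its complement ATTGG, the CHR and E2F matches.
Top2a (chr11:99024140-99024439, minus strand): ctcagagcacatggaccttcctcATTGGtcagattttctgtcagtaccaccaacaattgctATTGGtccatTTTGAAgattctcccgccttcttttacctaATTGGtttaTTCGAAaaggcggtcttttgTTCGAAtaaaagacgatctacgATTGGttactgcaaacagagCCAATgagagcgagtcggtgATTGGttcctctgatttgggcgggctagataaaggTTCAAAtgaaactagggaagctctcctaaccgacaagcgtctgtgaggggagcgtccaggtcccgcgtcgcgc
Mki67 (chr7:135716330-135716629, minus strand): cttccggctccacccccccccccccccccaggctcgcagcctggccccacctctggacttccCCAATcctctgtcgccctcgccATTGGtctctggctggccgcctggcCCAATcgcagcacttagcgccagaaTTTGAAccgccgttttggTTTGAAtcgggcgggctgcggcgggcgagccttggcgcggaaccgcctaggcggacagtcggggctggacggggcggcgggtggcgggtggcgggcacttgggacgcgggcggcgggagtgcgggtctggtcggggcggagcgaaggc
Ccnb2 (chr9:70421505-70421804, minus strand): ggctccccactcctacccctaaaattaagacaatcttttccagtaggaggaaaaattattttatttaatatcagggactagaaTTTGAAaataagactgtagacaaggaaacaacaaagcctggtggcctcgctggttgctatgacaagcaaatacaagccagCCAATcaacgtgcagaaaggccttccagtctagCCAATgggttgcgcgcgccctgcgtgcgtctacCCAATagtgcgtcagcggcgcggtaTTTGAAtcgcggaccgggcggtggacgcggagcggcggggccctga
Cdk1 (chr10:69352863-69353162, minus strand): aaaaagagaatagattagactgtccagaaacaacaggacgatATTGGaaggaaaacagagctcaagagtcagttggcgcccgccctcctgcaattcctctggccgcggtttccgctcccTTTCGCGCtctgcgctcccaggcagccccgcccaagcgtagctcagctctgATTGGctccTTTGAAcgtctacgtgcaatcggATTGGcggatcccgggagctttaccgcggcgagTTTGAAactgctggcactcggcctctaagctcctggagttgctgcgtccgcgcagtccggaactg
Mcm6 (chr1:128359656-128359955, minus strand): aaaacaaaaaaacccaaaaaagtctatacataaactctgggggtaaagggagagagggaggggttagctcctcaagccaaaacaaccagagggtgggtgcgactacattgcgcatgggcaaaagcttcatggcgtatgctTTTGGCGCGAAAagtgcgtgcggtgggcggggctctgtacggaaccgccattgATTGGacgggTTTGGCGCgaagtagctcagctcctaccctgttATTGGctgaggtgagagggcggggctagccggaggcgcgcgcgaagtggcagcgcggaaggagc
Mcm5 (chr8:75109259-75109558, plus strand): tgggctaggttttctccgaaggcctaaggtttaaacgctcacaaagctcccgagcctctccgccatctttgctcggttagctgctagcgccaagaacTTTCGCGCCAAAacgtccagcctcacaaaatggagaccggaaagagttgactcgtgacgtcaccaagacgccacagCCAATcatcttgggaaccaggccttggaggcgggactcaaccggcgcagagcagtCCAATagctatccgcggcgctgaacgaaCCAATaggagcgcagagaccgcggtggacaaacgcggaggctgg

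The Top2a window held 6 CCAAT and 4 CHR matches, and that of Mki67 held 3 and 2. Counted from the start of transcription, Ccnb2 had CHR matches that began at bases -167 and 5 and CCAAT boxes that began at -87, -54 and -21. Mcm6 held 3 E2F matches and Mcm5 held 2, a pair of which overlap in each, with no CHR in either window. Of the G2/M genes, Ccnb1, Cenpe and Birc5 had no CHR match, which says only that these letters are not in the window.

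**Figure D1:**
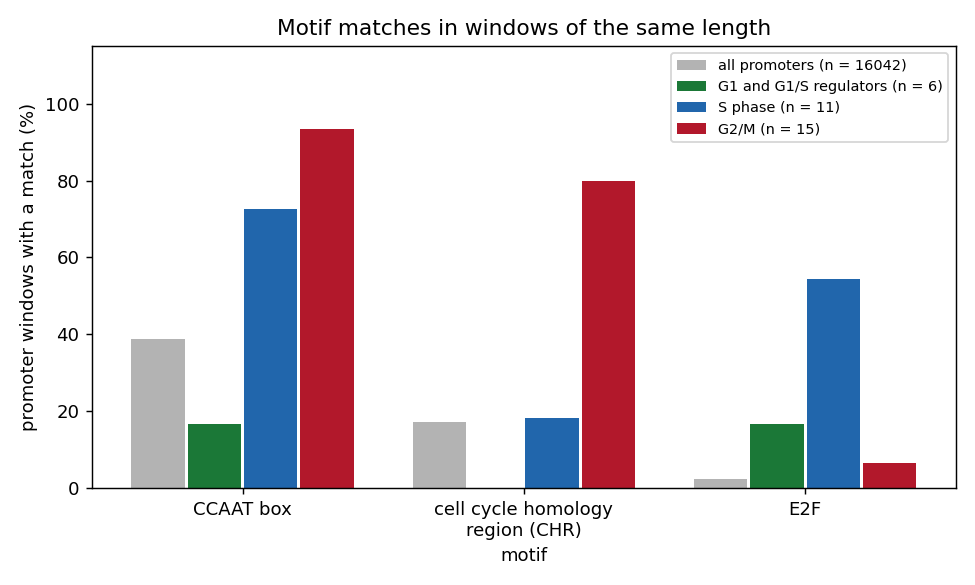
Share of promoter windows (y axis, %) with a match to each motif (x axis), for all promoters of genes in the table and for the G1 and G1/S, S phase and G2/M genes. The G2/M bar is the tallest for CCAAT (93.3%) and the CHR (80.0%), and the S phase bar for E2F (54.5%).

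Per length, the cyclin D genes Ccnd1 and Ccnd2 had the highest levels of the 42, while the other G1 cyclins Ccne1 (20.01), Ccne2 (14.9) and Ccnd3 (9.32) lay in the lower part of the order. Levels were taken as CPM per kb of exon (union of the exons in GENCODE M21), with the spread over the 4 libraries of both groups. Ccnd1, the cyclin D1 gene, was at 841 ± 92.4 (SD, n = 4) CPM per kb, Ccnd2 at 397 ± 35.6 and Cdk4, their kinase, at 142 ± 8.14. Each of these lay above the next without overlap between libraries. The fourth was Rrm2, the small subunit of ribonucleotide reductase, at 72.1 ± 11.2, followed by the DNA topoisomerase gene Top2a at 47.3 ± 8.56 and the cyclin A2 gene Ccna2 at 46.3 ± 4.98. From Rrm2 down to E2f1 (8.25 ± 0.999) each gene overlapped its neighbour in the order. Tyms and Cdc6 came lower, and Cdk6 was the lowest of the 42 at 0.369 ± 0.177, far under Cdk4. The median was 20.4 CPM per kb for G2/M genes, 24.9 for S phase genes and 14.9 for G1 genes. Exon unions include rare transcripts, so that levels of genes with many annotated forms are understated.

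Among the G2/M genes edgeR called none, and DESeq2 called Top2a, and Mki67 with line as a block. All 18 had positive log2 fold changes (0.05 to 0.45, median 0.24), against 51.8% of all genes tested and a median of 0.012 over these. In 15 of the 18 (83.3%) deleted exceeded control in each line, as did 38.1% of all genes, and in 10 (55.6%) both deleted libraries lay above both controls, which was so for 22.9% of all genes. The summed astrocyte markers, given above, also exceeded the control in each line, and their part in this was not tested. By edgeR's quasi-likelihood test with genotype as the only term, 0 of the 42 genes were called, beside 0% of all genes. With line as a block 0 were called again, beside 5.6% of all genes (3.71% higher and 1.89% lower). Before adjustment, 6 of the 42 had p under 0.05 without the block and a higher level in deleted cells (6.86% of all genes), and 0 a lower one (4.83%). Of these 6, 4 were G2/M genes, 1 an S phase gene and 1 an inhibitor gene. With the block 17 were higher and 1 lower (17.2% and 13.6% of all genes), of which 12 of the 18 G2/M genes (66.7%). DESeq2 called 1 of the 42 higher and 0 lower without a block (1.77% and 0.774% of all genes) and 2 higher and 0 lower with it (5.2% and 2.87%).

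The gene called by DESeq2 was Top2a, which untangles DNA ahead of chromosome segregation. It was at 368 CPM in control A, 355 in control B, 467 in deleted A and 514 in deleted B. Both deleted libraries were above both controls, which lay close together. The log2 fold change was 0.44 (SE 0.10, edgeR adjusted p = 0.401, blocked by line 0.0519), and DESeq2 gave an adjusted p of 0.0288 without and 0.00311 with the block. Mki67, which encodes the proliferation marker Ki-67, was at 358 and 357 CPM in controls A and B and at 426 and 502 in deleted A and B. Its groups did not overlap either, and its log2 fold change was 0.38 (SE 0.12, edgeR adjusted p = 0.406). DESeq2 called it with line as a block (adjusted p = 0.0233) and not without (0.194).

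The mitotic cyclins followed the same order within each line. Ccnb1, the cyclin B1 gene, was at 45.4 and 45.5 CPM in controls A and B and at 58.1 and 55.3 in deleted A and B. Its log2 fold change was 0.32 (SE 0.09, edgeR adjusted p = 0.406). Ccnb2, the cyclin B2 gene, was at 32.3 and 21.0 CPM in controls and at 45.5 and 27.1 in deleted cells, so that the groups overlapped because line B was lower throughout. Within lines its log2 differences were 0.49 in A and 0.37 in B. Cdk1, the kinase that both cyclins activate, was at 101 and 84.3 CPM in controls and at 117 and 113 in deleted cells with a log2 fold change of 0.30 (SE 0.13). Ccna2, the cyclin of S and G2, was at 182 and 163 CPM in controls and at 208 and 202 in deleted cells, again without overlap.

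Among genes of the spindle and its checkpoint the size of the difference varied. The survivin gene Birc5 and its partner kinase gene Aurkb, both of the chromosomal passenger complex, had log2 fold changes of 0.32 and 0.29 with groups that did not overlap. The motor gene Kif11 (0.24) and the kinetochore gene Cenpf (0.13) also had no overlap, as had Ube2c (0.20), whose product tags mitotic cyclins for destruction. Those of the checkpoint kinases Bub1b (0.26) and Bub1 (0.16) and of the spindle assembly factor Tpx2 (0.18) overlapped. The smallest were those of the motor gene Cenpe (0.09), of Cdc20 (0.09), which activates the anaphase promoting complex, and of the mitotic kinases Plk1 (0.07) and Aurka (0.05). Plk1, Aurka and Cenpe were lower in deleted A than in control A and higher in deleted B than in control B.

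**Figure D2:**
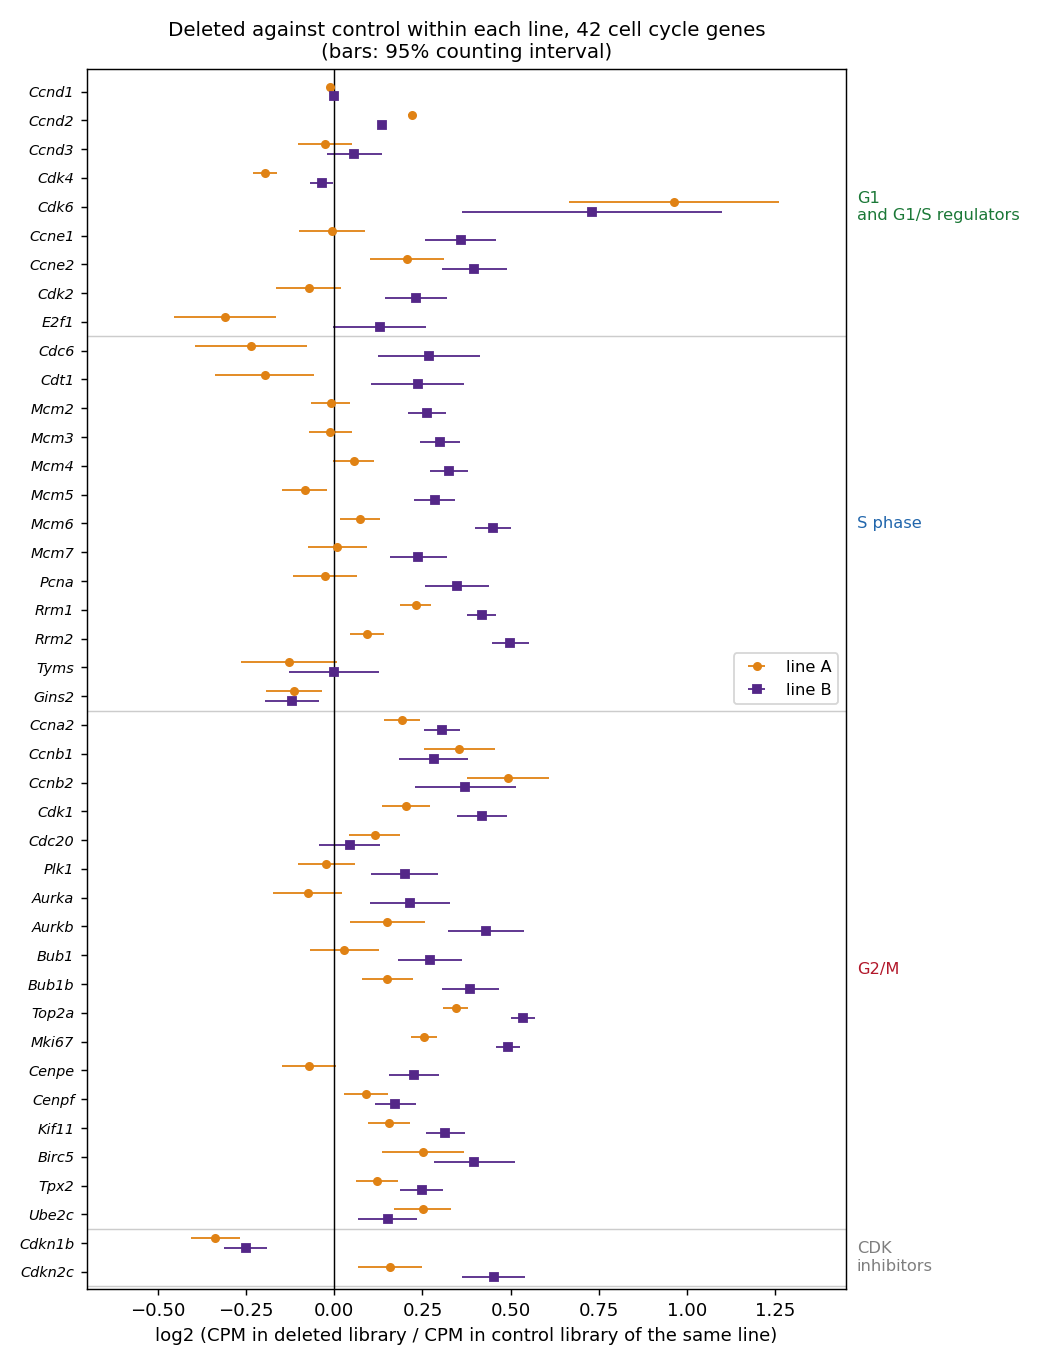
Log2 ratio of CPM in the deleted and the control library of the same line (x axis) for each of the 42 genes (y axis, by phase). Points are lines A (circles) and B (squares), bars the 95% interval from counting error alone. G2/M genes lie right of 0 in 15 of 18 cases in line A and 18 in line B, S phase genes in 5 and 11 of 13.

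S phase genes had other values in line A than in line B. In line B 11 of the 13 were higher in the deleted library, with a median log2 difference of 0.29, and in line A 5 were, with a median of -0.011. For G2/M genes the medians were 0.15 in line A and 0.29 in line B. Over all genes tested 51.7% were higher in the deleted library of line A and 49.9% in that of line B. The log2 difference was larger in line B than in line A for 35 of the 42 genes and for 48.2% of all genes. With a single library per arm in a line, the difference between lines has no replicate and could not be tested.

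The replicative helicase subunits Mcm2 to Mcm7, which open the DNA at origins, had higher values in deleted B than in control B throughout, and values close to the control in deleted A. Mcm6 was at 155 CPM in control A, 161 in control B, 163 in deleted A and 221 in deleted B. Deleted B stood above the other libraries, which lay close together (log2 fold change 0.28, SE 0.17, edgeR adjusted p = 0.564). Mcm4 was at 149 and 151 CPM in controls and at 155 and 189 in deleted cells. Within line A the log2 differences of the 6 Mcm genes ran from -0.084 (Mcm5) to 0.07 (Mcm6), and within line B from 0.24 (Mcm7) to 0.45 (Mcm6). Pcna, the sliding clamp of the polymerases, had differences of -0.027 in A and 0.35 in B.

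The ribonucleotide reductase genes, which supply deoxynucleotides, had higher values in each deleted library than in its control. Rrm1 was at 246 and 241 CPM in controls A and B and at 288 and 322 in deleted A and B, without overlap. Its log2 fold change was 0.33 (SE 0.10, edgeR adjusted p = 0.406). Rrm2 was at 207 and 154 CPM in controls and at 221 and 218 in deleted cells, a log2 fold change of 0.28 (SE 0.17), where control B was the low one. Tyms, the thymidylate synthase gene, and Gins2, of the helicase complex, were not higher, at log2 fold changes of -0.062 and -0.12. Gins2 was lower in both deleted libraries than in both controls.

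The origin licensing genes Cdc6 and Cdt1 moved in opposite directions in the lines. Cdc6, which loads the helicase, was at 22.0 CPM in control A and 18.7 in deleted A, and at 21.4 in control B and 25.8 in deleted B. The log2 difference was -0.24 in line A (95% counting interval -0.39 to -0.078) and 0.27 in line B (0.12 to 0.41). Cdt1, its partner, was at 27.6 and 24.1 CPM in control and deleted A and at 25.9 and 30.4 in control and deleted B. Deleted A was the lowest and deleted B the highest library for both genes, and for E2f1, Mcm5 and Cenpe. The group means of Cdc6 and Cdt1 therefore hardly differed (log2 fold changes 0.034 and 0.028). The log2 fold changes of E2f1, Mcm5 and Cenpe were -0.074, 0.11 and 0.086.

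**Figure D3:**
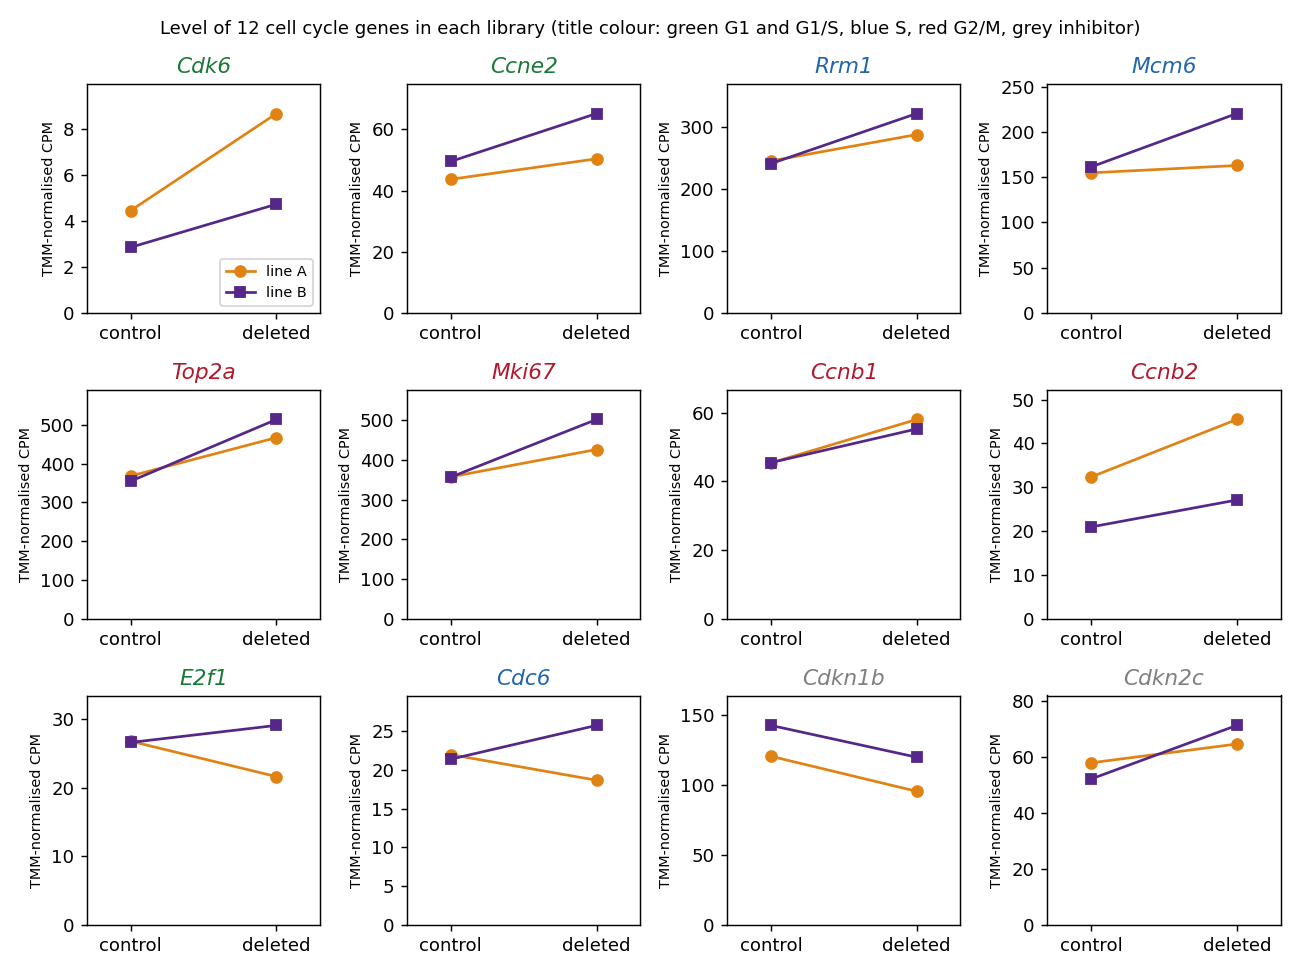
TMM-normalised CPM (y axis, from 0) of 12 genes in control and deleted libraries (x axis), with a line joining the libraries of cell line A (circles) and of cell line B (squares). Top2a, Mki67, Rrm1 and Ccnb1 are higher in both deleted libraries than in both controls, E2f1 and Cdc6 cross, and Cdkn1b is lower in both deleted libraries.

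G1 regulators had no common direction. Of the 9, 3 (33.3%) were higher in deleted A and in deleted B than in the matching control, 2 lower in both (36.4% of all genes) and 4 opposite, with a median log2 fold change of 0.08. Ccnd1, the most abundant of all, hardly differed between groups and was higher in both libraries of line A, at 4355 and 4323 CPM in control and deleted A and 3586 and 3585 in control and deleted B. Ccnd2 was at 3603 and 3409 CPM in controls and at 4197 and 3742 in deleted cells, a log2 fold change of 0.18 (SE 0.13, edgeR adjusted p = 0.619). Ccnd3 hardly differed (0.014). The kinase genes of the D-type cyclins went opposite ways. Cdk4 was at 496 and 464 CPM in controls and at 433 and 453 in deleted cells, with no overlap. Cdk6 was at 4.44 and 2.85 CPM in controls and at 8.66 and 4.72 in deleted cells, where both deleted libraries were the higher ones (132 and 97 counts against 290 and 151). Its log2 fold change of 0.88 (SE 0.42, edgeR adjusted p = 0.478, blocked by line 0.0659) was the largest of the 42, on the lowest counts.

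Of the E-type cyclins, Ccne2 was at 43.7 and 49.5 CPM in controls A and B and at 50.4 and 65.2 in deleted A and B. Deleted cells were higher in each line (log2 fold change 0.31, SE 0.16, edgeR adjusted p = 0.513). Ccne1 was at 57.6 and 43.0 CPM in controls and at 57.4 and 55.1 in deleted cells, so that control B alone stood low. Cdk2, their kinase, and E2f1, the transcription factor downstream, were each lower in deleted A and higher in deleted B. E2f1 was at 26.8 and 21.6 CPM in control and deleted A and at 26.6 and 29.1 in control and deleted B.

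The inhibitors differed from each other. Cdkn1b, which encodes p27 and holds Cdk2 in check in resting cells, was at 120 and 142 CPM in controls A and B and at 95.2 and 120 in deleted A and B. The higher deleted library (119.6) was just under the lower control (120.2), and within each line the deleted library was clearly the lower one. The log2 fold change was -0.29 (SE 0.16, edgeR adjusted p = 0.535, blocked by line 0.0707). Cdkn2c, which encodes the Cdk4 and Cdk6 inhibitor p18, was at 57.9 and 52.1 CPM in controls and at 64.7 and 71.3 in deleted cells. Its groups did not overlap either, in the opposite direction (log2 fold change 0.31, SE 0.11, edgeR adjusted p = 0.424). Over all 42 genes the groups did not overlap for 19 with deleted cells higher (45.2%, against 22.9% of all genes) and for 3 with deleted cells lower (7.14%, against 22.8%), the 3 being Cdk4, Gins2 and Cdkn1b.

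The libraries contributed unequally. Control B was the lowest library for 25 of the 42 genes and deleted B the highest for 22, and for the G2/M genes control B was the lowest for 13 of 18. The median log2 fold change of all 42 genes was 0.16, and it was 0.105 without control B, 0.103 without deleted B, 0.208 without deleted A and 0.232 without control A. For G2/M genes it was 0.166 without control B and 0.367 without control A, and for G1 regulators it turned to -0.0373 without control B. For S phase genes the median was 0.127 with all libraries, 0.0241 without deleted B and 0.247 without deleted A.

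The lines themselves were also compared. In the fit with line and genotype, edgeR called 3 of the 42 genes as different between line B and line A, all lower in B. This is near the share over all genes, of which 10.1% were called (6.63% lower and 3.51% higher). The 3 were of the G2/M list, Ccnb2 by -0.69 (SE 0.09, adjusted p = 0.0217), Cdc20 by -0.55 (SE 0.07, adjusted p = 0.019) and Plk1 by -0.53 (SE 0.08, adjusted p = 0.0302). Cdc20 was at 91.5 and 99.1 CPM in control and deleted A and at 64.3 and 66.2 in control and deleted B. Plk1 was at 78.1 and 76.9 CPM in line A and at 50.3 and 57.7 in line B, and Aurka, at 54.7 and 51.9 against 35.6 and 41.3, just missed the threshold (adjusted p = 0.0501). With line as the only term edgeR called 0 of the 42, for which the share over all genes is not given here. In 16 of the 42 genes the line difference was larger than the genotype difference, as in 49.6% of all genes. Of the 13 S phase genes 11 were higher in line B, and of the 18 G2/M genes 6 were, against 50.9% of all genes.

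**Figure D4:**
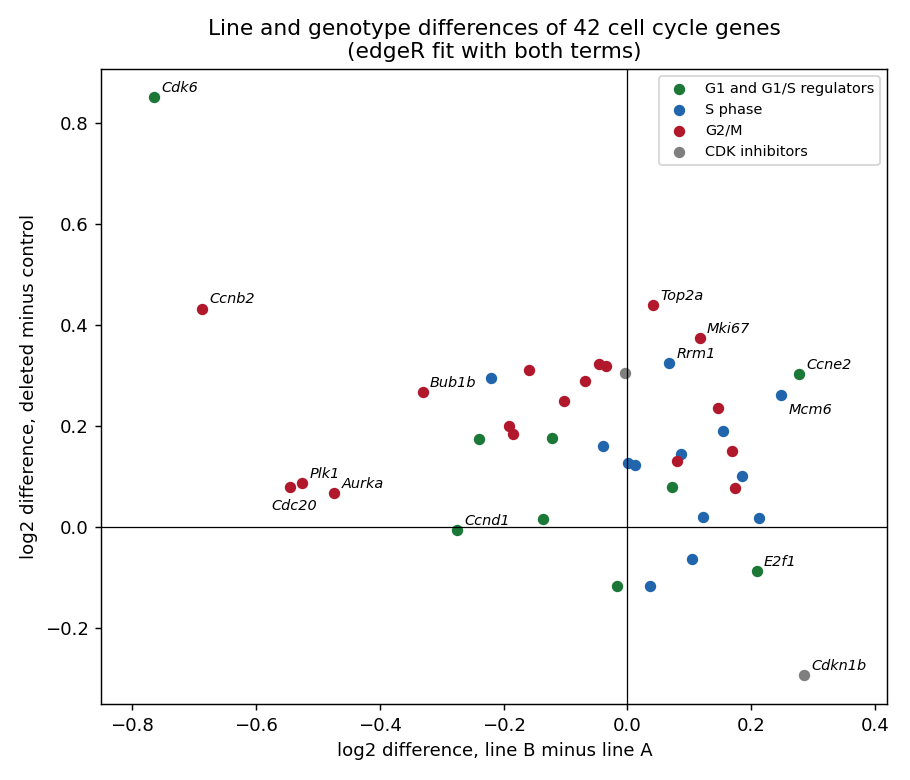
Log2 difference between deleted and control (y axis) against that between line B and line A (x axis), from the edgeR fit with both terms, for the 42 genes coloured by phase. Cdk6 (-0.77), Ccnb2, Cdc20, Plk1 and Aurka (-0.69 to -0.47) lie farthest to the left, and all G2/M genes lie above 0 on the y axis.

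A list of 124 further cell cycle genes was also tested. Over these the median log2 fold change was 0.16, with 0.18 for 54 genes of G2 and mitosis, 0.14 for 46 replication genes, 0.068 for 19 G1 regulators and 0.013 for 5 inhibitors. Of the 54 mitotic genes 51 were positive, and in 29 (53.7%) the groups did not overlap with deleted cells higher, against 51.8% and 22.9% of all genes. Without a block edgeR called 0 of the 124 (unadjusted p was under 0.05 for 5, each higher in deleted cells, against 6.86% of all genes), and DESeq2 called 0 (1.77% and 0.774% of all genes higher and lower). With line as a block edgeR called 1 higher and 0 lower, against 3.71% and 1.89% of all genes. It was Spc25, a subunit of the Ndc80 complex that joins kinetochores to microtubules, at 38.9 and 30.5 CPM in controls A and B and at 53.1 and 40.4 in deleted A and B. Its log2 fold change was 0.43, with SE 0.08 and edgeR adjusted p = 0.0498 in the blocked fit, and SE 0.20 and 0.469 without the block. DESeq2 with the block called 1 as well, against 5.2% of all genes higher and 2.87% lower. Named as the pair with the highest mean count of each list without a call, the p53 target and inhibitor gene Cdkn1a had a log2 fold change of 0.013, Cdkn2a one of -0.086, Myc 0.022, Tfdp1 -0.006, Orc5 -0.084 and Rpa1 0.13, and none was called.

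Some counts are uncertain because genes overlap and strand use in counting is not stated. Entries overlapping on the genome, with over 10% of the gene's own counts, were present for Ccnd1, Ccnd3, Cdk4, Ccne2, Cdt1, Mcm7, Gins2, Ccna2 and Cdc20. The entry that overlaps Cdt1 is on the same strand, so strand use could not separate the pair. It had 20079 counts summed over the libraries, against 3481 for Cdt1. Annotated pseudogene copies exist for Ccnd3, Pcna, Tyms, Ccnb1 and Ccnb2, between which reads could be split.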

How the data were processed

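RNA-seq of 4 libraries was analysed from a table of whole-number read counts, as the authors deposited them. TopHat2 2.0.12, bcl2fastq, edgeR and mm10 are named, without roles, per the submitters' processing notes. No source used here states the counter or its use of strand. Another 8 columns hold counts by parental genome. They were not used because the column names show a group but no single sample, so the planned allele shares were not run. Groups came from the labels, and lines A and B from the number that a deleted and a control column share, since each line was divided before transduction. Deviations from the group means correlated between libraries of a line at r = 0.716 over 14860 genes, which are not independent replicates. Counts of the 2 controls differed beyond sampling error (chi-square per degree of freedom 43.9), as did those of the 2 deleted libraries (71.1). With 2 libraries per group, p-values measure the spread between these cultures only.

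Genes were tested with edgeR 4.0.16 in R 4.3.3 (quasi-likelihood, TMM, filterByExpr, Benjamini-Hochberg over all genes, threshold 0.05) with genotype as the only term. Alternatives were line as a block, DESeq2 1.42.0, RLE and total count scaling, no filter and leaving out each library. The scripts were tested on simulated data. The SE is the log2 fold change divided by the root of the F statistic. Log2 differences within a line have counting intervals only. Genes and lists were chosen with earlier results of these data known. The genes given by library were those called with line as a block or, where fewer than 4 were, the 4 of each phase with the lowest p there. Others, among them E2f1, Cdc6, Cdt1, Mcm5, Cdk4, Cdk1, Ccna2, Cdc20, Plk1 and Aurka, were named after their values were seen. The neuronal marker Map2 was not analysed here.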

Additional observations from a re-analysis of the deposited data

Results flagged for a closer look

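Cdc6, Cdt1 and Mcm5 moved in opposite directions in the lines, each beyond its 95% counting interval. The log2 difference between deleted and control for Cdc6 was -0.236 in A and 0.268 in B, -0.197 and 0.236 for Cdt1, and -0.0837 and 0.285 for Mcm5, in the same order. With a single library per arm in a line the difference between lines was not tested.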

How the results depend on the processing

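With line as a replicate block the number of the 42 genes called stayed at 0, and it was 1 by DESeq2 and 2 by DESeq2 with the block, so the pairing of libraries changed no edgeR call among them. RLE and total count scaling, each with and without the block, and no filter on low counts also gave 0, and 36 of the 42 log2 fold changes were positive under each of these settings. Without the block edgeR called 0 of all genes under each scaling and without the filter, so no list could hold a call there. With the block it called 832 of 14860 genes, 908 under RLE and 835 under total count scaling. DESeq2 called 378 without and 1199 with the block. Of the 124 further cell cycle genes 1 was called with line as a block, and 1 each with the block under RLE scaling, total count scaling and DESeq2. Each library was also left out in turn, which leaves 1 library in a group, so only log2 fold changes are given for these fits. The median log2 fold change then ran from 0.103 to 0.232 for the 42 genes, from -0.0373 (without control B) to 0.136 for G1 regulators, from 0.0241 to 0.247 for S phase genes, from 0.166 to 0.367 (without control A) for G2/M genes and from 0.0504 to 0.228 for the further genes. The cause of these shifts was not tested. Between lines 3 of the 42 were called, near the share over all genes (10.1%), and 0 with line as the only term and 5 without a filter. The shares of all genes under these last settings are not given here. For 14 genes the sign of the log2 fold change turned when a library was left out, Aurka (-0.232 to 0.384), Bub1 (-0.0137 to 0.293), Ccnd1 (-0.149 to 0.136), Ccnd3 (-0.0746 to 0.101), Ccne1 (-0.0373 to 0.384), Cdc20 (-0.235 to 0.358), Cdc6 (-0.236 to 0.247), Cdk2 (-0.0524 to 0.189), Cdt1 (-0.17 to 0.186), Cenpe (-0.104 to 0.237), E2f1 (-0.324 to 0.122), Mcm5 (-0.103 to 0.283), Plk1 (-0.217 to 0.417), Tyms (-0.168 to 0.0174). Cdk6 had the fewest counts, and its 95% counting interval was 0.67 to 1.26 in line A (132 and 290 counts) and 0.36 to 1.10 in line B (97 and 151 counts). Allele shares and their planned count minima were not run.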
